A study of Mus musculus with 12 samples.

Results

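Tet1, Tet2, Tet3 and Tdg were followed in RNA-seq of mouse embryonic stem cells (ES cells). They were taken as the rows of the gene tables whose identifier, without its version, carries one of these 4 symbols in GENCODE mouse release M21, and they are 4 of the 52550 identifiers listed in each table. The 12 libraries fall into 6 groups of 2. Unmodified ES cells came from 2 media, serum/LIF and 2iL, while ES cells labelled as a GSK3 knockout came from serum/LIF alone. Cells of each kind received DMSO, the solvent control, or JQ1 at 100 nM, and all were harvested after 60 h. JQ1 is a small molecule that displaces BET bromodomain proteins from acetylated chromatin. The 2iL medium holds LIF with inhibitors of the kinases MEK and GSK3 in place of serum. The labels name the MEK inhibitor, PD0325901, and do not name the other. All groups received LIF. The labels give no strain, sex or passage, and they state neither which GSK3 gene or genes the knockout line lacks, its alleles, nor whether it is 1 clone. Serum/LIF cultures had a feeder layer of mitomycin-treated embryonic fibroblasts until they were replated onto gelatin for the treatment. The 2iL cultures were on gelatin throughout, and the effect of the medium and that of earlier contact with feeders cannot be told apart. No label says that replicates came from separate cultures, and the p-values below measure the spread between libraries, which may be technical.

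The TET proteins are dioxygenases that oxidise 5-methylcytosine to 5-hydroxymethylcytosine and further to 5-formylcytosine and 5-carboxylcytosine, using 2-oxoglutarate, iron and oxygen. Tdg encodes thymine DNA glycosylase, which cuts out the formyl and carboxyl forms so that base excision repair can put back an unmodified cytosine. Mouse ES cells are known for expressing Tet1 and Tet2 and little Tet3, which is best known for its action on the paternal genome of the zygote. Moving ES cells from serum to 2iL is known to lower the methylation of their genome. No methylation or protein was measured here, so all values below are of transcripts.

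All 4 are protein-coding genes of GRCm38 (mm10). Tet1 lies on chromosome 10 from 62804570 to 62908996 on the minus strand, Tet2 on chromosome 3 from 133463679 to 133545139 on the minus strand, Tet3 on chromosome 6 from 83362373 to 83459084 on the minus strand, and Tdg on chromosome 10 from 82629828 to 82650799 on the plus strand. Bases upstream of the RefSeq start sites (GRCm38.p6) are shown for the 3 Tet genes, whose levels shared some changes and not others. Tet1 and Tet2 fell with JQ1 in the knockout, where Tet3 did not pass. With JQ1 on both sides, Tet1 and Tet3 were lower in the knockout than in unmodified cells and Tet2 was higher. A link between these bases and the levels was not tested. Each runs 5′ to 3′ on the minus strand, with CG dinucleotides, the sites at which mammalian DNA is mainly methylated, in capitals. The stretches are chr10:62887513-62887574 for Tet1, chr3:133544391-133544640 for Tet2 and chr6:83441679-83441928 for Tet3.
Tet1: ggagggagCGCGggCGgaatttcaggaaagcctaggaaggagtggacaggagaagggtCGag
Tet2: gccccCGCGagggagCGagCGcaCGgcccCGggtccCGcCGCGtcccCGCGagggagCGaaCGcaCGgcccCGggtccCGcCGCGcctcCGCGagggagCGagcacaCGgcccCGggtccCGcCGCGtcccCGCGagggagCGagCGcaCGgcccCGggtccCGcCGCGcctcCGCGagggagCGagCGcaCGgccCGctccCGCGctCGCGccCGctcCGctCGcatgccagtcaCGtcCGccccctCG
Tet3: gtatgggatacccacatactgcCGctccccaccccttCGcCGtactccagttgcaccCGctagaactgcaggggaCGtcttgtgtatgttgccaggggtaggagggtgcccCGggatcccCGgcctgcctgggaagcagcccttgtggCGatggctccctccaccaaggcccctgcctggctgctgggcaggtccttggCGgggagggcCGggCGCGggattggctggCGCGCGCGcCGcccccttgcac
None of the printed bases is exonic in a GENCODE model of the same gene, and exons of other genes were not looked at. They lie within the genomic span of other transcript models that start farther upstream. These are Tet1-206, Tet1-208 and Tet1-209 for Tet1, Tet2-205 for Tet2, and Tet3-203 and Tet3-204 for Tet3. The Tet1 window lies directly upstream of the first base of the short model Tet1-207, not of a long Tet1 model. Of its 250 bases 100 are exonic in Tet1-210. The printed stretch stops before the first of these, and all bases from there to the start site were left out. The 250 bases upstream of Tet2 held 51 CG dinucleotides, more than in 99.9% of the 32851 promoter windows in the RefSeq table, and 83.6% of them were G or C. A stretch of 43 bases occurs more than once in that Tet2 window. The Tet1, Tet3 and Tdg windows held 15, 17 and 19 CG dinucleotides, more than in 72.7%, 76.5% and 80.3% of windows. On either strand, the GC box GGGCGG occurred 1 time in each of the Tet1, Tet2 and Tet3 windows and not in Tdg, and 32.7% of all windows held it. The E-box CACGTG occurred 1 time in the Tdg window and in none of the Tet windows, against 6.02% of all windows. Neither CTTTGA nor CTTTGT (TCF/LEF core, in 27.6% of windows) nor CCGGAA (ETS core, in 12% of windows) was in any of the 4 windows.

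Libraries held 17869865 to 48723436 expected counts, the deepest being replicate 1 of unmodified serum/LIF with DMSO and the next deepest 29882439. Gsk3a and Gsk3b checked the knockout label: over libraries Gsk3a stood at 23.4 to 32.9 CPM, counts scaled to library size in the knockout and at 65.1 to 130 CPM in unmodified cells, and Gsk3b at 42.5 to 61.1 against 72.2 to 158 CPM. Neither was at 0 in the knockout. The 5 ES cell markers Pou5f1, Sox2, Zfp42, Sall4 and Utf1 were all above 1 CPM in all 12 libraries, with summed levels of 1202 to 2492 CPM. The 10 fibroblast markers (Col1a1, Col1a2, Col3a1, Postn, Thy1, Pdgfrb, Fbn1, Lum, Dcn and Twist2) summed to 808.9 to 816.4 CPM in unmodified serum/LIF with DMSO and to 344.9 to 355.9 CPM with JQ1. In 2iL they summed to 7.115 to 15.6 CPM, with 4 to 6 of the 10 at 0, including Postn, Dcn and Twist2. In the knockout they summed to 273.5 to 429 CPM with DMSO and to 150.6 to 195.7 CPM with JQ1. The share of counts from mitochondrially encoded genes was also lower with JQ1 in each setting: 6.45% to 7.51% against 9.44% to 11.9% in serum/LIF, 4.67% to 4.82% against 6.41% to 6.75% in 2iL, and 7.20% to 8.43% against 10.7% to 11.2% in the knockout. The part of fibroblast RNA or of this share in the results below was not tested.

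Tet1 encodes a TET enzyme that has a CXXC DNA-binding domain and predominates in ES cells. It stood at 236.5 and 359.3 CPM in unmodified serum/LIF with DMSO and at 130.5 and 107.5 CPM with JQ1. The JQ1 libraries were both below both controls, and Tet1 fell by 1.32 ± 0.22 on the log2 scale (± standard error throughout, edgeR quasi-likelihood test, Benjamini-Hochberg adjusted p = 0.00149). In bulk RNA fewer cells with a transcript and less of it per cell cannot be told apart. In the knockout the fall was 1.90 ± 0.23 (adjusted p = 7.17e-05), from 247.4 and 223.6 CPM to 56.52 and 70.11 CPM, a 3.73-fold lower level with no overlap between the groups. In 2iL Tet1 was at 265.4 and 429.1 CPM with DMSO and at 365.5 and 358.1 CPM with JQ1, so that both JQ1 libraries lay between the 2 controls. The difference there was 0.06 ± 0.22 (adjusted p = 0.872), and it turned to -0.24 without the 2iL DMSO replicate 1. With DMSO, Tet1 passed neither between 2iL and serum/LIF (0.22 ± 0.22, adjusted p = 0.409) nor between knockout and unmodified cells (-0.34 ± 0.22, adjusted p = 0.242). Both rested on single libraries. The 2iL difference was -0.05 without serum/LIF DMSO replicate 1, 0.55 without serum/LIF DMSO replicate 2 and -0.21 without 2iL DMSO replicate 2. The knockout difference was -0.61 without serum/LIF DMSO replicate 1 (adjusted p = 0.0689) and -0.01 without serum/LIF DMSO replicate 2 (adjusted p = 0.985), and it passed with no low-count filter (-0.34, adjusted p = 0.0286). With JQ1 on both sides, Tet1 was 1.60 ± 0.22 higher in 2iL than in serum/LIF (adjusted p = 5.18e-05) and 0.91 ± 0.22 lower in knockout than in unmodified cells (adjusted p = 0.00519). The latter fell short of the threshold without knockout JQ1 replicate 1 (-0.76, adjusted p = 0.0582). In the order of mean levels, 2iL with JQ1, 2iL with DMSO, serum/LIF with DMSO and knockout with DMSO each overlapped the next group, and serum/LIF with JQ1 and knockout with JQ1 were separate at the low end.

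**Figure D1:**
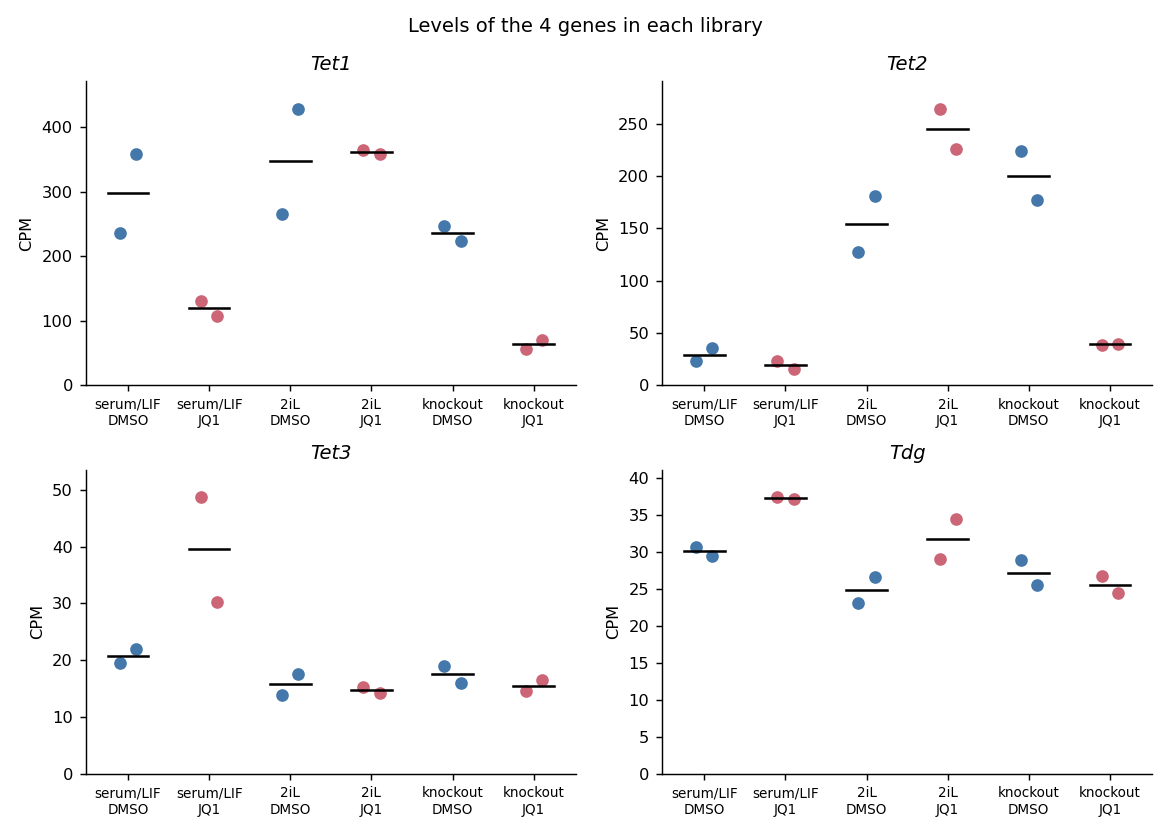
Level of each gene in CPM (linear axis from 0) in the 12 libraries, 1 point per library, blue for DMSO and red for JQ1, with the mean of each group of 2 as a black line. Tet1 and Tet2 were lowest in serum/LIF or knockout cells with JQ1, Tet3 was highest in unmodified serum/LIF with JQ1, and Tdg stayed between 23.08 and 37.36 CPM.

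Tet2 encodes the TET enzyme that lacks a CXXC domain of its own, and it had the largest ratio of highest to lowest CPM of the 4 genes over the 12 libraries. In unmodified serum/LIF with DMSO it stood at 23.06 and 35.16 CPM. It was at 127.4 and 181.3 CPM in 2iL with DMSO and at 223.8 and 177.1 CPM in the knockout with DMSO. Neither range overlapped that of unmodified serum/LIF. Tet2 was thus 5.36-fold higher in 2iL (log2 fold change 2.42 ± 0.24, adjusted p = 2.32e-06) and 6.95-fold higher in the knockout (2.80 ± 0.24, adjusted p = 2.10e-06). These comparisons share the serum/LIF DMSO libraries. It was the 1 gene of the 4 that passed in either, where 54.8% and 40.0% of the 16987 genes tested passed. The fibroblast markers were lower in both, summing to 10.32 and 15.6 CPM in 2iL and to 273.5 and 429 CPM in the knockout against 808.9 and 816.4 CPM, and their part was not tested.

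JQ1 lowered Tet2 in the knockout to 38.25 and 39.59 CPM, both near the higher serum/LIF control. This was a 5.15-fold fall, by 2.37 ± 0.24 on the log2 scale (adjusted p = 1.96e-05), with no overlap between groups. Together with Tet1, 2 of the 4 genes passed there, against 34.1% of all genes. In unmodified serum/LIF with JQ1 Tet2 was at 23.20 and 15.10 CPM. That range overlapped its controls and the difference of -0.59 ± 0.24 did not pass (adjusted p = 0.099), and it depended on single libraries and settings. It passed in the absence of the first DMSO library (-0.87, adjusted p = 0.043) or the first JQ1 library (-0.92, adjusted p = 0.0399), by DESeq2 (-0.62, adjusted p = 0.0462) and with no low-count filter (-0.56, adjusted p = 0.000808). It was smaller in the absence of the second DMSO library (-0.26, adjusted p = 0.555) or the second JQ1 library (-0.29, adjusted p = 0.477). In 2iL Tet2 rose with JQ1 to 264.4 and 225.9 CPM, above both 2iL controls, by 0.67 ± 0.22 (adjusted p = 0.0402). It was the 1 gene of the 4 called in 2iL, where 28.5% of all genes were. This call lay close to the threshold: without 2iL DMSO replicate 1 the value was 0.44 (adjusted p = 0.269), without 2iL JQ1 replicate 1 it was 0.56 (adjusted p = 0.197), and without 2iL JQ1 replicate 2 it was 0.78 (adjusted p = 0.0836). It also missed the threshold without knockout JQ1 replicate 1 (adjusted p = 0.0534) or 2 (adjusted p = 0.0528), which change the shared spread, and under the stricter filter (adjusted p = 0.0522). With JQ1 in both arms Tet2 was 12.8-fold higher in 2iL than in serum/LIF (3.67 ± 0.25, adjusted p = 7.92e-08) and 1.02 ± 0.24 higher in the knockout than in unmodified cells (adjusted p = 0.00401). The fibroblast markers summed to 15.6 and 10.32 CPM in 2iL with DMSO and to 9.453 and 7.115 CPM with JQ1. Pdgfrb was the highest of them there, with means of 8.25 CPM with DMSO and 5.22 CPM with JQ1. Their part in the Tet2 values was not tested.

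Tet3 encodes the third TET enzyme and was the lowest of the 3 in TPM, the deposited transcript abundance scaled for length, with DMSO in each setting. Its level was 19.43 and 21.95 CPM in unmodified serum/LIF with DMSO and 48.70 and 30.35 CPM with JQ1. The 2 JQ1 libraries were above both controls and were far apart from each other. Tet3 rose by 0.94 ± 0.20 (adjusted p = 0.00627), and without JQ1 replicate 1, the higher library, the value was 0.56 and missed the threshold (adjusted p = 0.0601). With Tet1, 2 of the 4 genes passed in this comparison, against 21.3% of all genes. In 2iL Tet3 stood at 13.81 and 17.64 CPM with DMSO and at 15.32 and 14.23 CPM with JQ1. In the knockout it stood at 19.00 and 15.98 CPM with DMSO and at 14.56 and 16.43 CPM with JQ1. The groups overlapped in both settings, and neither difference passed (-0.09, adjusted p = 0.781, and -0.18, adjusted p = 0.533). With DMSO, Tet3 did not pass between 2iL and serum/LIF (-0.39, adjusted p = 0.123) or between knockout and unmodified cells (-0.24, adjusted p = 0.385), although the first did when either serum/LIF JQ1 library was left out (adjusted p = 0.0477 without replicate 1 and 0.0272 without replicate 2). With JQ1, Tet3 was 1.42 ± 0.21 lower in 2iL (adjusted p = 7.55e-05) and 1.36 ± 0.21 lower in the knockout (adjusted p = 0.000179) than in unmodified serum/LIF. Both comparisons contain the serum/LIF JQ1 libraries. With Tet1 and Tet2, 3 of the 4 genes passed between 2iL and serum/LIF with JQ1, against 53.3% of all genes.

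Tdg had the smallest such ratio of the 4 genes. It stood at 30.61 and 29.48 CPM in unmodified serum/LIF with DMSO and at 37.36 and 37.08 CPM with JQ1, at 23.08 and 26.62 CPM in 2iL with DMSO and at 28.98 and 34.41 CPM with JQ1. In the knockout it was at 28.90 and 25.49 CPM with DMSO and at 26.68 and 24.39 CPM with JQ1. The JQ1 libraries were above their controls in both unmodified settings without passing (0.31 ± 0.13, adjusted p = 0.106, in serum/LIF, and 0.35 ± 0.13, adjusted p = 0.0597, in 2iL), and the knockout groups overlapped (-0.09 ± 0.13, adjusted p = 0.628). The 2iL value passed without 2iL DMSO replicate 2 (0.47, adjusted p = 0.0473). With DMSO, Tdg passed neither in 2iL against serum/LIF (-0.28 ± 0.13, adjusted p = 0.0891) nor in the knockout (-0.14, adjusted p = 0.404). The 2iL value did pass by DESeq2 (-0.34, adjusted p = 0.0447), with RLE scaling (-0.34, adjusted p = 0.0383) and without 2iL DMSO replicate 2 (-0.43, adjusted p = 0.0414). With JQ1, Tdg was 0.54 ± 0.13 lower in the knockout than in unmodified cells (adjusted p = 0.00451), which made all 4 genes called there against 44.0% of all genes. Without knockout JQ1 replicate 2 it was -0.48 (adjusted p = 0.0529). Between 2iL and serum/LIF with JQ1 it did not pass (-0.23 ± 0.13, adjusted p = 0.153). The counts of Tdg are uncertain because they were not whole in any library, so reads were shared with other loci. A processed copy, Tdg-ps, held 49.69 to 193.79 counts per library, while the counts of the 3 Tet genes were whole in all 12.

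**Figure D2:**
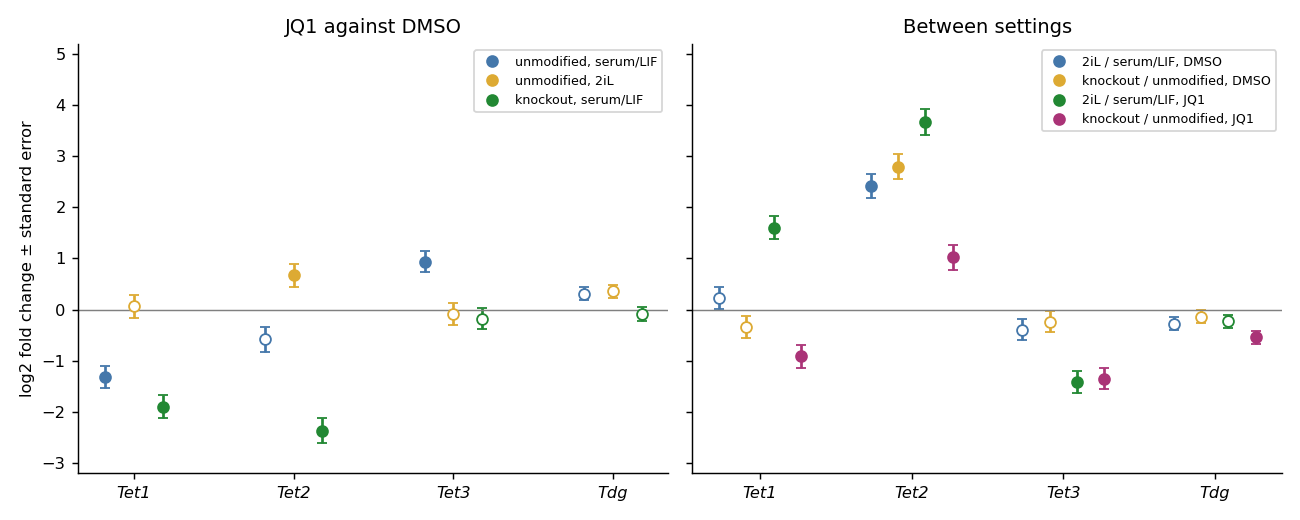
log2 fold change of each gene with its standard error, for JQ1 against DMSO in 3 settings (left) and between settings with DMSO or with JQ1 (right). Filled points passed at an adjusted p under 0.05 and open points did not. Tet2 lies above 0 in all 4 comparisons on the right, and the left panel shows the fall of Tet1 by 1.32 in serum/LIF and by 1.90 in the knockout beside 0.06 in 2iL.

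The JQ1 responses themselves were compared between settings. Between 2iL and the knockout they differed for Tet1, by 1.96 ± 0.31 (adjusted p = 0.00386), and for Tet2, by 3.03 ± 0.32 (adjusted p = 0.000474), and each difference kept its direction and its call under all 19 alternative settings. These were 2 of the 4 genes, against 12.1% of all genes. Tet3 (0.09, adjusted p = 0.88) and Tdg (0.44, adjusted p = 0.127) did not differ in this test. Between 2iL and unmodified serum/LIF the Tet1 response differed by 1.38 ± 0.31 (adjusted p = 0.0245), the 1 gene called of 4 against 4.16% of all genes. It missed the threshold when the fit held just the libraries compared (adjusted p = 0.0657) and without serum/LIF DMSO replicate 2 (1.05), serum/LIF JQ1 replicate 2 (1.24), 2iL DMSO replicate 1 (1.07), 2iL JQ1 replicate 1 (1.37) or 2iL JQ1 replicate 2 (1.39), with adjusted p from 0.0641 to 0.0876. The Tet2 response differed by 1.25 ± 0.33 and lay at the threshold (adjusted p = 0.0507). It passed without serum/LIF DMSO replicate 1 (1.54), serum/LIF JQ1 replicate 1 (1.60) or 2iL DMSO replicate 2 (1.53), and also with RLE scaling (1.29), no low-count filter (1.23), the effective length offset (1.43) and DESeq2 (1.30). Tet3 differed by -1.03 ± 0.29 (adjusted p = 0.0696), and passed without serum/LIF JQ1 replicate 2 (adjusted p = 0.00825), with no low-count filter (adjusted p = 0.000875) and by DESeq2 (adjusted p = 0.0439). Between knockout and unmodified cells in serum/LIF the Tet2 response was 1.78 ± 0.33 lower (adjusted p = 0.0116, 0.0508 without knockout DMSO replicate 1 and 0.055 without knockout JQ1 replicate 1). The Tet3 response was 1.12 ± 0.29 lower (adjusted p = 0.0479). These were 2 of the 4 genes against 4.37% of all genes. The Tet3 call was lost without any 1 of 9 libraries, namely all but serum/LIF JQ1 replicate 2 and both 2iL DMSO replicates, with adjusted p from 0.0694 to 0.188 and values from -1.24 to -0.74. The Tet1 responses in the knockout and in unmodified serum/LIF differed by -0.58 ± 0.31 (adjusted p = 0.289), which did not pass. The Tdg response in unmodified serum/LIF passed neither against that in the knockout (-0.40 ± 0.18, adjusted p = 0.216) nor against that in 2iL (0.04 ± 0.18, adjusted p = 0.942). The 3 differences share libraries and are not independent.

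On the length-scaled TPM values, which allow levels to be compared between genes as far as the estimated lengths hold, the makeup of the Tet transcripts differed between settings. Tet1 made up 75.41% and 76.01% of the summed TPM of Tet1, Tet2 and Tet3 in unmodified serum/LIF with DMSO, Tet2 17.32% and 18.49%, and Tet3 7.27% and 5.50%. With JQ1 there the Tet1 share was 58.33% and 60.58% and the Tet3 share 22.58% and 20.01%, while Tet2 was at 19.09% and 19.41%. In 2iL with DMSO Tet1 and Tet2 were close to equal, with 46.1% and 52.08% for Tet1 and 50.84% and 45.45% for Tet2. The Tet2 share was 54.96% and 52.76% in 2iL with JQ1. In the knockout Tet2 had the largest TPM share, at 64.12% and 59.95% with DMSO and at 51.76% and 49.75% with JQ1. The Tet3 share there was 10.56% and 11.22% with JQ1 beside 2.82% and 2.97% with DMSO. These shares rest on the estimated lengths given below, which for Tet2 were well below its full-length models. In CPM, not scaled for length, Tet1 had the higher mean. It was 347.3 against 154.4 for Tet2 in 2iL with DMSO. In the knockout it was 235.5 against 200.4 with DMSO and 63.31 against 38.92 with JQ1. The summed TPM was highest in 2iL with JQ1 (101.6 and 91.11) and lowest in the knockout with JQ1 (14.20 and 13.81), below the 69.46 and 53.51 of the knockout with DMSO. In unmodified serum/LIF it was 28.06 and 40.02 for the controls and 26.66 and 16.49 under JQ1, and for the 2iL controls it was 50.28 and 84.44. The sums rest on the estimated lengths too, and in 2iL that of Tet1 was lower with JQ1. Mean Tet1 TPM there went from 33.58 with DMSO to 42.68 with JQ1, while mean Tet1 CPM went from 347.3 to 361.8. Shares and sums are given without a test, because an exact permutation test of 2 against 2 libraries cannot go below 0.333.

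**Figure D3:**
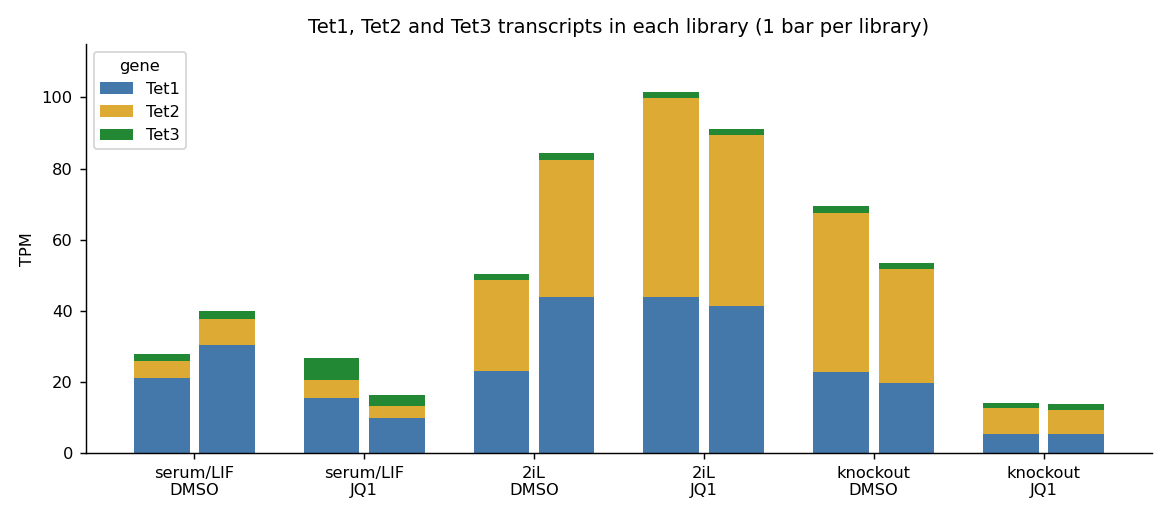
TPM of Tet1 (blue), Tet2 (yellow) and Tet3 (green) stacked in 1 bar per library, on a linear axis from 0. The 2 bars of 2iL with JQ1 reach 101.6 and 91.11 TPM, and those of the knockout with JQ1 reach 14.20 and 13.81 TPM.

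The tables also give each gene's length as a mean of its transcript models weighted by their estimated abundance. For Tet1 this was 13714.92 and 12200.14 bases in 2iL with DMSO and 10272.04 and 10766.03 bases with JQ1, without overlap. The long Tet1 models are Tet1-201 (13986 bases) and Tet1-206 (14369 bases), and each other model is 1505 bases or shorter, so a lower mean reflects a larger estimated share of short models. In serum/LIF the Tet1 means were 12493.53 and 12538.61 bases with DMSO and 10825.13 and 12487.12 bases with JQ1. In the knockout they were 11851.25 and 11954.31 bases with DMSO and 11746.95 and 13305.65 bases with JQ1, with overlap. Tet2 stayed between 5211.37 and 6141.82 bases, well below its full-length models of 9179 and 9021 bases, and several of its listed models are retained introns. Tet3 stayed between 10434.47 and 10863.84 bases, near its long model Tet3-202 of 10904 bases. Tdg ranged from 2061.11 to 2741.76 bases. These lengths are model estimates from short reads, and no test was made of them.

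**Figure D4:**
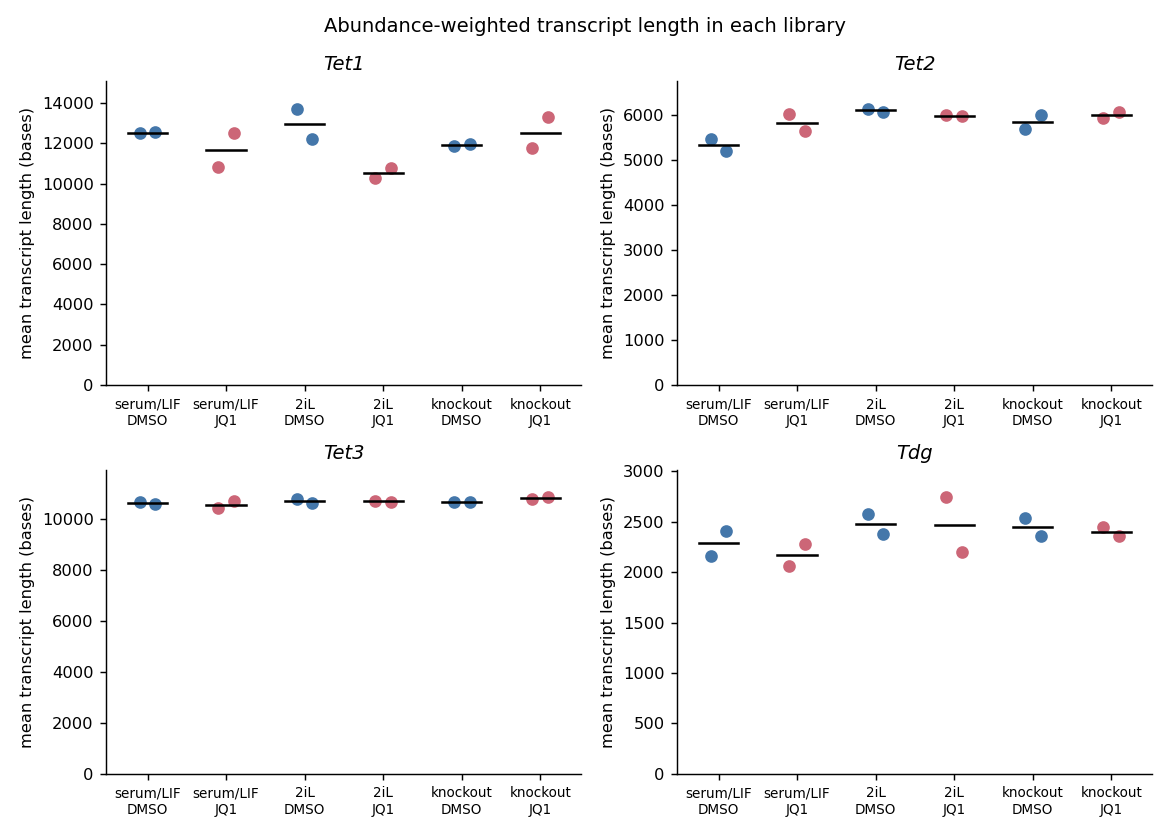
Abundance-weighted mean transcript length in bases (linear axis from 0) in the 12 libraries, 1 point per library, blue for DMSO and red for JQ1, with group means as black lines. The 2 Tet1 points of 2iL with JQ1, at 10272.04 and 10766.03 bases, lie below both 2iL DMSO points.

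Over the 12 libraries the log2 CPM of Tet1 and Tet2 correlated with Pearson r = 0.619, that of Tet3 and Tdg with r = 0.721, and that of Tet2 and Tet3 with r = -0.621. Among 10564 genes with a mean of at least 5 CPM, the gene most like Tet1 was Tenm4 (r = 0.972), followed by Nexmif, Uggt1, Dusp27 and Adam19 (r = 0.939 for the last). Sun1 was most like Tet2 (r = 0.990), followed by Zfp654, Gabpa, Itpr3 and Pcsk6 (r = 0.971). Kpna3 was most like Tet3 (r = 0.949), followed by Slc43a2, Limd1, Plekhh2 and Celsr2 (r = 0.898), and Med14 was most like Tdg (r = 0.931), followed by Cul4a, Ddx3x, Appl1 and Arhgef2 (r = 0.911). These values describe likeness over 6 groups of 2 libraries that share medium, line and treatment, and carry no p.

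Base excision repair completes the removal begun by TET and TDG. Of 12 genes for glycosylases and later steps, 6 were higher and none lower in 2iL than in serum/LIF with DMSO (28.3% of all genes higher, 26.5% lower), with a median of 0.72 on the log2 scale beside 0.04 over all genes tested. The knockout with DMSO also had 6 higher and none lower (18.9% of all genes higher, 21.0% lower), with a median of 0.47 beside 0.01. Parp1, the poly(ADP-ribose) polymerase that senses strand breaks, rose in both (0.84 ± 0.10, adjusted p = 1.66e-05, and 0.70 ± 0.10, adjusted p = 0.000148). Xrcc1, a scaffold for single-strand break repair, rose by 0.88 ± 0.10 in 2iL (adjusted p = 8.07e-06). With JQ1 in 2iL 4 of the 12 fell (17.3% of all genes) and 1 rose (11.2%), with a median of -0.20 beside -0.06. That count of 5 went to 3 without DMSO replicate 1, to 2 without JQ1 replicate 1 and to 2 without JQ1 replicate 2. Neil3, a glycosylase for oxidised bases, fell by 1.27 ± 0.21 (adjusted p = 0.000976). Xrcc1 also fell with JQ1 in 2iL, by 0.42 ± 0.10 (adjusted p = 0.00736). Parp1 was the 1 that rose, by 0.44 ± 0.10 (adjusted p = 0.00697). The calls of Xrcc1 and Parp1 depended on single libraries. JQ1 left 1 higher and none lower in serum/LIF (median 0.10 beside -0.02), and 1 higher and 1 lower in the knockout (median 0.01 beside -0.06), and neither count was stable. The serum/LIF count ran from 0 to 2 and moved in 14 of 19 alternative settings, and the knockout count ran from 0 to 2 and moved in 7. The serum/LIF count was 0 without either of its DMSO libraries, its JQ1 replicate 2, either 2iL JQ1 library or either knockout JQ1 library, and 2 without either 2iL DMSO library. The knockout count was 0 without any 1 of its 4 libraries and 1 without either 2iL JQ1 library.

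APOBEC deaminases and Gadd45 proteins have been proposed as other routes of demethylation. With JQ1 2 of the 6 genes tested fell in serum/LIF (12.8% of all genes), 2 in 2iL (17.3%) and 3 in the knockout (19.5%), and 1 rose in 2iL (11.2%) and 1 in the knockout (14.6%). Their medians were -0.60, -0.45 and -0.62, beside -0.02, -0.06 and -0.06 over all genes. The serum/LIF count of 2 went to 4 without DMSO replicate 1 and to 5 with no low-count filter, and the knockout count of 4 went to 2 without DMSO replicate 1. Apobec2 fell in all 3 settings, by 2.55 ± 0.44 in serum/LIF (adjusted p = 0.00172), 2.79 ± 0.28 in 2iL (adjusted p = 2.66e-05) and 4.50 ± 0.51 in the knockout (adjusted p = 4.92e-05). Its mean went from 41.8 to 6.03 CPM in 2iL. It was low elsewhere, going from 2.24 to 0.374 CPM in serum/LIF and from 3.5 to 0.163 CPM in the knockout, so the sizes of those falls are uncertain. Apobec3 fell by 0.66 ± 0.13 in serum/LIF (adjusted p = 0.00428) and by 1.06 ± 0.14 in the knockout (adjusted p = 0.000124).

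Genes that supply or spend the TET cofactors 2-oxoglutarate and ascorbate formed a list of 11. JQ1 raised 2 and lowered 1 in serum/LIF (8.54% of all genes higher, 12.8% lower), raised 4 and lowered none in 2iL (11.2% and 17.3%), and raised 4 and lowered 2 in the knockout (14.6% and 19.5%). The medians were 0.14, 0.20 and 0.20, beside -0.02, -0.06 and -0.06 over all genes. The serum/LIF count of 3 went to 1 without DMSO replicate 2 and without JQ1 replicate 1. The knockout count of 6 went to 3 or fewer without any 1 of its 4 libraries. Slc23a1, an ascorbate transporter, fell by 2.42 ± 0.28 in serum/LIF (adjusted p = 0.000124) and by 2.77 ± 0.36 in the knockout (adjusted p = 0.000132), while in 2iL it was already 5.24 ± 0.35 lower than in serum/LIF with DMSO (adjusted p = 7.33e-08). Its mean went from 16.7 to 3.11 CPM in serum/LIF and from 3.45 to 0.487 CPM in the knockout, and was 0.437 CPM in 2iL with DMSO. Idh2, the mitochondrial isocitrate dehydrogenase that makes 2-oxoglutarate, was 1.61 ± 0.10 higher in 2iL than in serum/LIF (adjusted p = 4.87e-08) and rose by 0.89 ± 0.10 with JQ1 in the knockout (adjusted p = 5.09e-05). Slc23a2, the other ascorbate transporter of the list, was called in opposite directions, 0.67 ± 0.15 in 2iL (adjusted p = 0.0059) and -0.46 ± 0.15 in the knockout (adjusted p = 0.0336). The first call was lost without 2iL DMSO replicate 1 or JQ1 replicate 1 (adjusted p up to 0.0629) and the second without any 1 of the 4 knockout libraries or either 2iL JQ1 library (adjusted p up to 0.198).

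Of 11 genes for proteins that bind TET enzymes, recruit them or read oxidised cytosine, JQ1 raised 2 and lowered 3 in serum/LIF (8.54% of all genes higher, 12.8% lower), raised 5 and lowered none in 2iL (11.2% and 17.3%), and raised 2 and lowered 3 in the knockout (14.6% and 19.5%). Their medians were 0.23, 0.29 and -0.03, beside -0.02, -0.06 and -0.06 over all genes. The serum/LIF count of 5 went to 3 without either DMSO library, the 2iL count to 1 when its first DMSO library was left out, to 2 for its first JQ1 library and to 3 for either knockout JQ1 library, and the knockout count to 3 without JQ1 replicate 1. Prdm14, a transcription factor of the naive state, fell by 4.09 ± 0.56 in serum/LIF (adjusted p = 0.00043) and fell by 2.70 ± 0.34 in the knockout (adjusted p = 0.000115), and was at 0.02 ± 0.24 in 2iL (adjusted p = 0.975). Its mean went from 3.45 to 0.186 CPM in serum/LIF and from 10.1 to 1.59 CPM in the knockout, beside 69.5 and 70.4 CPM in 2iL. Nanog, a pluripotency factor known to bind TET1, fell by 1.60 ± 0.15 in serum/LIF (adjusted p = 3.27e-05) and was at 0.23 in 2iL (adjusted p = 0.243) and at -0.02 in the knockout (adjusted p = 0.924). Cxxc5, a CXXC-domain protein, rose by 0.94 ± 0.11 in the knockout (adjusted p = 6.49e-05).

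The DNA methyltransferases act in the opposite direction to the TET enzymes. The list described here held 5 genes, those of the DNA methyltransferase family and Uhrf1, which is not a methyltransferase. With JQ1 2 of the 5 genes rose in serum/LIF and none fell (8.54% of all genes higher, 12.8% lower), 3 rose and 1 fell in 2iL (11.2% and 17.3%), and 1 rose and 1 fell in the knockout (14.6% and 19.5%). The medians were 0.28, 0.53 and -0.19, beside -0.02, -0.06 and -0.06 over all genes. The knockout median was the value of Uhrf1. The count of 2 went to 1 without serum/LIF DMSO replicate 1, DMSO replicate 2 or JQ1 replicate 1, and in the knockout without DMSO replicate 1 or either JQ1 library. Dnmt3b, a de novo methyltransferase, rose in all 3, by 0.77 ± 0.13, 1.08 ± 0.13 and 0.69 ± 0.13 (adjusted p = 0.0014, 0.000103 and 0.00149). Dnmt3a, also a de novo methyltransferase, went the other way. It fell by 1.04 ± 0.22 in 2iL (adjusted p = 0.00391) and by 0.84 ± 0.22 in the knockout (adjusted p = 0.0117). Both calls depended on single libraries, and the serum/LIF difference of -0.36 ± 0.21 did not pass (adjusted p = 0.252). In 2iL with DMSO Dnmt3b was 3.39 ± 0.14 lower than in serum/LIF (adjusted p = 2.07e-09), and in the knockout it was 2.13 ± 0.13 lower than in unmodified cells (adjusted p = 1.78e-07), while Tet2 was higher in both. Uhrf1, which brings DNMT1 to hemimethylated DNA, was 1.33 ± 0.10 and 1.04 ± 0.10 higher in those comparisons (adjusted p = 1.83e-07 and 4.51e-06).

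A list of 12 germline genes, whose promoters are known to be held silent by DNA methylation, was also described. Whether their transcripts follow TET or TDG activity was not tested. With DMSO 6 were higher and none lower in 2iL than in serum/LIF (28.3% of all genes higher, 26.5% lower), with a median of 1.32 beside 0.04 over all genes. In the knockout 2 were higher and none lower (18.9% and 21.0%), with a median of 0.33 beside 0.01. That count of 2 was 1 without knockout DMSO replicate 1 and 4 with no low-count filter. JQ1 lowered 4 and raised none in serum/LIF (12.8% of all genes lower, 8.54% higher), lowered 9 and raised 1 in 2iL (17.3% and 11.2%), and lowered 7 and raised 1 in the knockout (19.5% and 14.6%). The medians were -0.77, -1.49 and -1.84, beside -0.02, -0.06 and -0.06 over all genes. The serum/LIF count of 4 went to 2 without DMSO replicate 2. The 2iL count of 10 went to 6 without DMSO replicate 1 or JQ1 replicate 1 and to 5 without JQ1 replicate 2. Medians and counts include Asz1 and Tex101, each at 0 CPM in both libraries of at least 1 group, whose fitted values are no bounds. Asz1 was at 0 CPM in all knockout libraries, and its fitted value of 0 there enters the median. Others of the list were also low in some groups. Tuba3a, a testis tubulin gene, fell in all 3 settings, by 1.31 ± 0.25, 1.34 ± 0.14 and 2.22 ± 0.27 (adjusted p = 0.00307, 4.49e-05 and 8.58e-05). Its mean went from 249 to 98.4 CPM in 2iL. It was low elsewhere, going from 2.99 to 1.14 CPM in serum/LIF and from 3.48 to 0.729 CPM in the knockout. Sycp3, a component of the meiotic chromosome axis, fell by 3.70 ± 0.40 in 2iL (adjusted p = 4.34e-05) and by 2.54 ± 0.40 in the knockout (adjusted p = 0.000467), and by 1.43 ± 0.34 in serum/LIF (adjusted p = 0.0104, and 0.0777 without DMSO replicate 2).

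**Figure D5:**
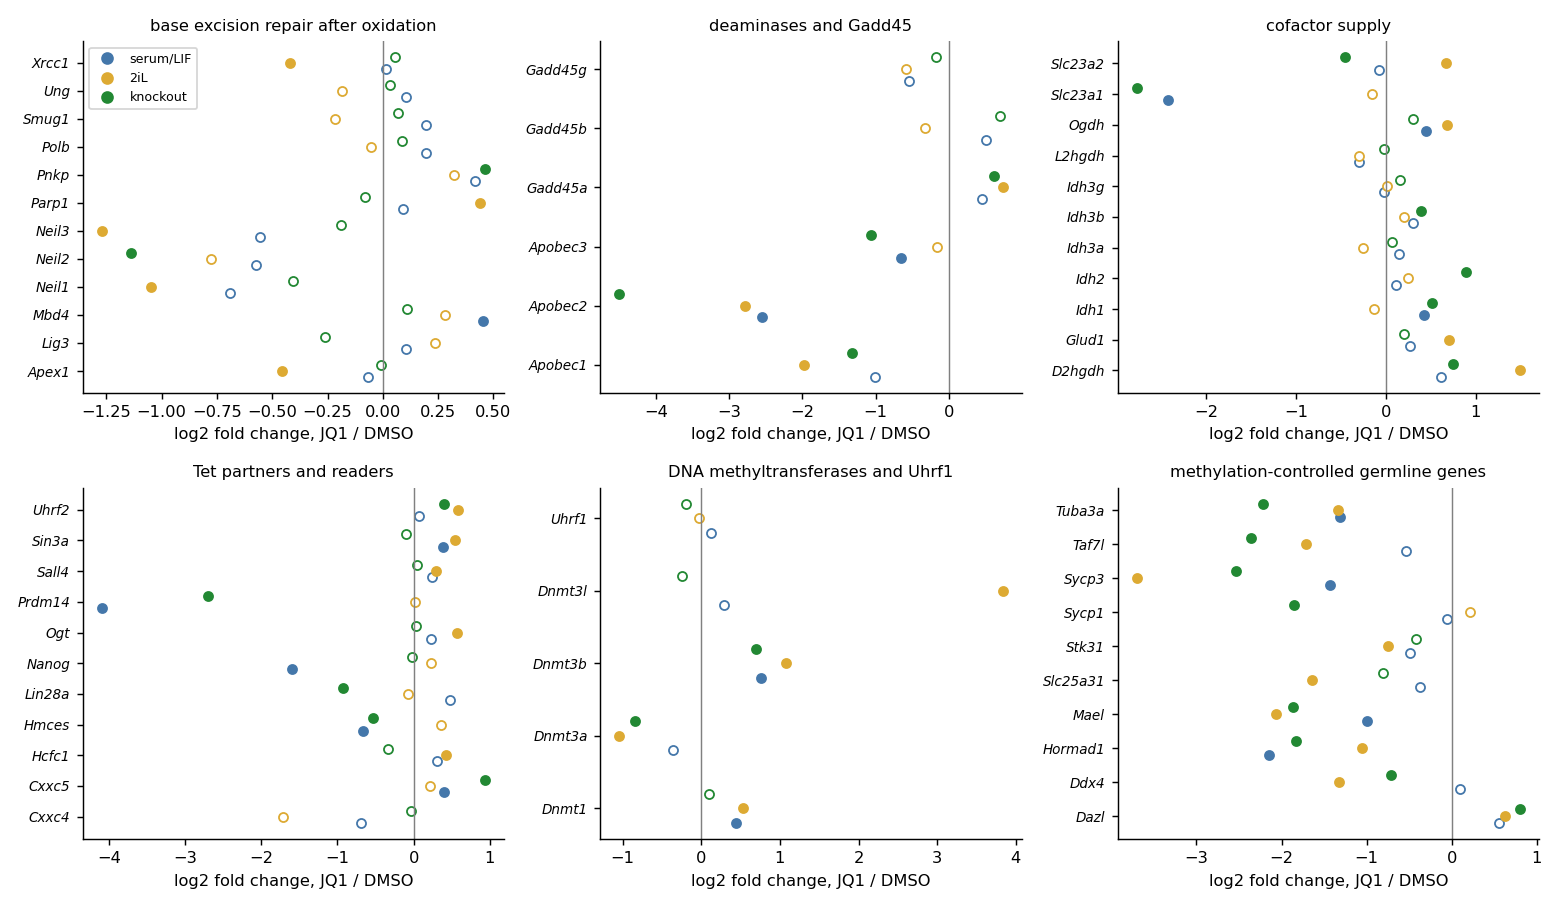
log2 fold change of JQ1 against DMSO for the tested genes of the 6 pathway lists, in serum/LIF (blue), 2iL (yellow) and the knockout (green), with scales that differ between panels. Filled points passed at an adjusted p under 0.05 and open points did not; Asz1 and Tex101 are left out for their zeros. In the last panel 8 of the 10 plotted germline genes lie below 0 in serum/LIF and in 2iL, and 9 in the knockout.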

How the data were processed

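RNA was extracted with TRIzol and sequenced with paired-end reads from libraries made with an mRNA-seq kit, per the labels' protocols. The deposited tables, 1 per library, hold expected counts and TPM per gene as the authors estimated them; the submitters' processing notes list mm10 as the build and, as tools, RSEM, STAR 2.5.2, bcl2fastq and DESeq2 1.18.1, and annotation release, strand setting and filters are not given in the sources used here. Of 52550 identifiers 52403 (99.72%) matched GENCODE M21 without version.

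Expected counts were rounded to whole numbers before the test, edgeR 4.0.16 in R 4.3.3: filterByExpr (minimum count 10, minimum total 15; 16987 genes, all 4 genes included), TMM, 1 quasi-likelihood fit of the 6 groups (6 residual degrees of freedom, common biological coefficient of variation 0.129), 10 comparisons, two-sided, Benjamini-Hochberg adjusted p under 0.05 over all genes. Standard errors were derived from the quasi-likelihood F statistic (log2 fold change over its square root). The code was tested on simulated counts. CPM use TMM library sizes. Deposited TPM were used for shares within a library. Alternatives were RLE scaling, no filter, a filter of 1 CPM in 4 libraries, just the libraries compared, a replicate block, an effective length offset, DESeq2 1.42.0 and leaving out each library. Genes of the 6 pathway lists whose changes are given are among the 5 of their list with the lowest adjusted p under JQ1, or were called in opposite directions. Not all such genes are named. Members, lists, motifs and tests were chosen with earlier results of these data known. Likeness used log2(CPM + 0.5). 1 gene of these lists is not reported here.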

Additional observations from a re-analysis of the deposited data

Results flagged for a closer look

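In 5 cases the JQ1 response of a gene differed between settings by the test of the difference itself (edgeR quasi-likelihood, adjusted over 16987 genes). Between 2iL and the knockout, Tet1 differed by 1.96 on the log2 scale and Tet2 by 3.03, each with both libraries of the treated group on one side of its controls in the knockout. Between 2iL and unmodified serum/LIF, Tet1 differed by 1.38. Between knockout and unmodified cells in serum/LIF, the response differed by -1.78 for Tet2 and by -1.12 for Tet3. The differences of 1.38, -1.78 and -1.12 lost their call under some alternative settings, as given above, and those of 1.96 and 3.03 under none. With 2 libraries a group, no group was large enough to look for single outlying libraries.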

How the results depend on the processing

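All 40 log2 fold changes and the 10 counts of genes called were recomputed under 19 alternative settings. Of 760 values for single genes, 698 kept their direction and call, 29 lost the call, 22 gained one and 11 changed sign. The sign changes were all of values that had not passed: in 2iL with JQ1, Tet1 at -0.24 without 2iL DMSO replicate 1 and Tet3 at 0.105 without 2iL DMSO replicate 2; in the knockout with JQ1, Tdg at 0.0092 without knockout DMSO replicate 1; for 2iL against serum/LIF with DMSO, Tet1 at -0.0477 without serum/LIF DMSO replicate 1 and -0.213 without 2iL DMSO replicate 2; for the 2iL minus serum/LIF response, Tdg at -0.0174 with the effective length offset, -0.0586 without 2iL DMSO replicate 1 and -0.0912 without 2iL JQ1 replicate 2; and for the 2iL minus knockout response, Tet3 at -0.0872 without 2iL DMSO replicate 1, -0.042 without knockout DMSO replicate 1 and -1.02e-05 without knockout JQ1 replicate 1. With a library left out these values ran from -0.24 to 0.456 (Tet1) and -0.251 to 0.105 (Tet3) in 2iL with JQ1, from -0.172 to 0.0092 (Tdg, knockout with JQ1), from -0.213 to 0.55 (Tet1, 2iL against serum/LIF), from -0.0912 to 0.165 (Tdg, 2iL minus serum/LIF response) and from -0.0872 to 0.27 (Tet3, 2iL minus knockout response). The cause was not tested.

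Counts of the 4 genes called changed in 7 of the 10 comparisons, in 5 of them by over 1.5 times. JQ1 in serum/LIF called 2, and 3 with no filter, by DESeq2 and without serum/LIF DMSO replicate 1. The knockout against unmodified cells with JQ1 called 4, and 3 without either knockout JQ1 library. JQ1 in 2iL called 1, and 0 under the stricter filter and 0 to 2 when a library was left out. For 2iL against serum/LIF with DMSO the count was 1, and 2 with RLE scaling, 2 by DESeq2 and 1 to 2 with a library left out. For the knockout with DMSO it was 1, and 2 with no filter. For the 2iL minus serum/LIF response it was 1, and 2 with RLE scaling, 3 with no filter, 0 with just the libraries compared, 2 with the length offset, 3 by DESeq2 and 0 to 2 with a library left out. For the knockout minus unmodified response it was 2, and 1 with RLE scaling, just the libraries compared or the length offset, and 0 to 2 with a library left out. Over all genes, the 2iL minus serum/LIF response called 706 genes, 1478 with no filter and 431 in the fit of just the libraries compared, and the knockout minus unmodified response called 742 and, with the length offset, 414. A lone library of a group was assumed to vary like the others.

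The replicate block, which pairs libraries by number, left each of the 10 counts of the 4 genes as it was (2 in serum/LIF, 1 in 2iL and 2 in the knockout with JQ1), and the 15 correlations of deviations between same-numbered libraries ran from -0.234 to 0.272. Of these 7 were over 0.1, including the 3 between DMSO and JQ1 within a setting (0.272, 0.168 and 0.172). As not all were over 0.1 and no label gives the numbers a meaning, the libraries were not treated as paired. Tet3 had 269 to 1121 counts a library and Tet2 312 to 5239.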
